A study of Mus musculus with 16 samples.

Results

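The genes of branched-chain amino acid catabolism were examined in mouse liver by 10 members: Bckdha, Bckdhb, Dbt, Bckdk, Ppm1k, Ivd, Mccc1, Mccc2, Acad8 and Acadsb. They were chosen by symbol, with earlier results of these data known, as 10 of 19938 genes measured. Each was represented by 1 probe set of the Affymetrix Mouse Gene 1.0 ST array that carried no other gene. One array was run for each of 16 livers from male mice 4 months old. Mutants were Mut -/-;TgINS-MCK-Mut and controls were heterozygous, Mut +/-;TgINS-MCK-Mut, so that both genotypes carried the same transgene and no wild-type liver was among the groups. Mut, now named Mmut, encodes methylmalonyl-CoA mutase, and MCK in the transgene's name is the muscle creatine kinase promoter, which drives expression in muscle. Each genotype was sampled without fasting on a normal diet and after fasting, with 4 mice in each of the 4 groups. The fast was 12 hours in heterozygotes and 8 to 12 hours in mutants, so genotype and length of fast cannot be told apart in the fasted livers. The strain, the kind of mutation and the fast of each single mouse are not given in the sources used here.

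Leucine, isoleucine and valine share the first steps of their breakdown. A transaminase turns them into branched-chain 2-oxo acids, and a mitochondrial dehydrogenase complex then commits them to oxidation. Its E1 subunits are encoded by Bckdha and Bckdhb and its E2 core by Dbt. The kinase encoded by Bckdk phosphorylates E1 and switches the complex off, and the phosphatase encoded by Ppm1k switches it on. After this step the routes part. Ivd (isovaleryl-CoA dehydrogenase) and the biotin enzyme methylcrotonyl-CoA carboxylase, with subunits from Mccc1 and Mccc2, act on leucine. Acad8 (isobutyryl-CoA dehydrogenase) acts on valine and Acadsb (short/branched chain acyl-CoA dehydrogenase) on isoleucine. Valine and isoleucine end in propionyl-CoA and so feed the mutase that Mmut encodes. Liver is known for high activity of the dehydrogenase complex and little of the first transaminase.

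All values are RMA values on the log2 scale, and a gene is called changed at an adjusted p under 0.05 in the limma fit to all 16 arrays. Mmut separated the genotypes on every array, at 9.66 to 10.10 in the 8 heterozygotes and 7.85 to 8.33 in the 8 mutants. Hepatocyte markers such as Alb (13.49 to 13.66) were among the brightest genes on every array. Unfasted mutant replicate 1 stood apart, with the 5 measured markers of pancreatic acinar cells averaging 11.30 there and 6.94 to 7.25 on the other arrays. Markers of some other liver cells moved with genotype. Of 8 endothelial markers 6 were higher in unfasted and 6 in fasted mutants, and their mean ran from 9.72 to 10.08 over the mutant arrays and from 9.18 to 9.57 over the heterozygous ones. Of 9 macrophage markers 7 were higher in fasted mutants and none was called in unfasted ones. Their means were 8.92 to 9.75 in mutants and 8.68 to 9.22 in heterozygotes. Of 8 stellate cell and fibroblast markers 6 were higher in unfasted and 2 in fasted mutants, with means of 9.11 to 9.55 against 8.90 to 9.09. Of 6 listed periportal hepatocyte genes 3 were measured, and 2 of these were lower in each comparison while 1 was higher without a call. The mean of the 3 ran from 11.70 to 12.56 in mutants and from 12.55 to 12.94 in heterozygotes. None of 6 pericentral hepatocyte genes was called in either comparison. Of 5 cholangiocyte markers 1 was lower and of 7 lymphocyte markers 1 was higher in fasted mutants, with no call in unfasted ones. Of 6 neutrophil markers 1 was higher in unfasted mutants and none was called in fasted ones. None of 7 hepatocyte markers was called in either comparison by limma, and 1 had an unadjusted p under 0.05 in each. The part of these shifts in the results on the members was not tested, and in whole liver fewer cells of a type and less RNA per cell cannot be told apart.

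**Figure D1:**
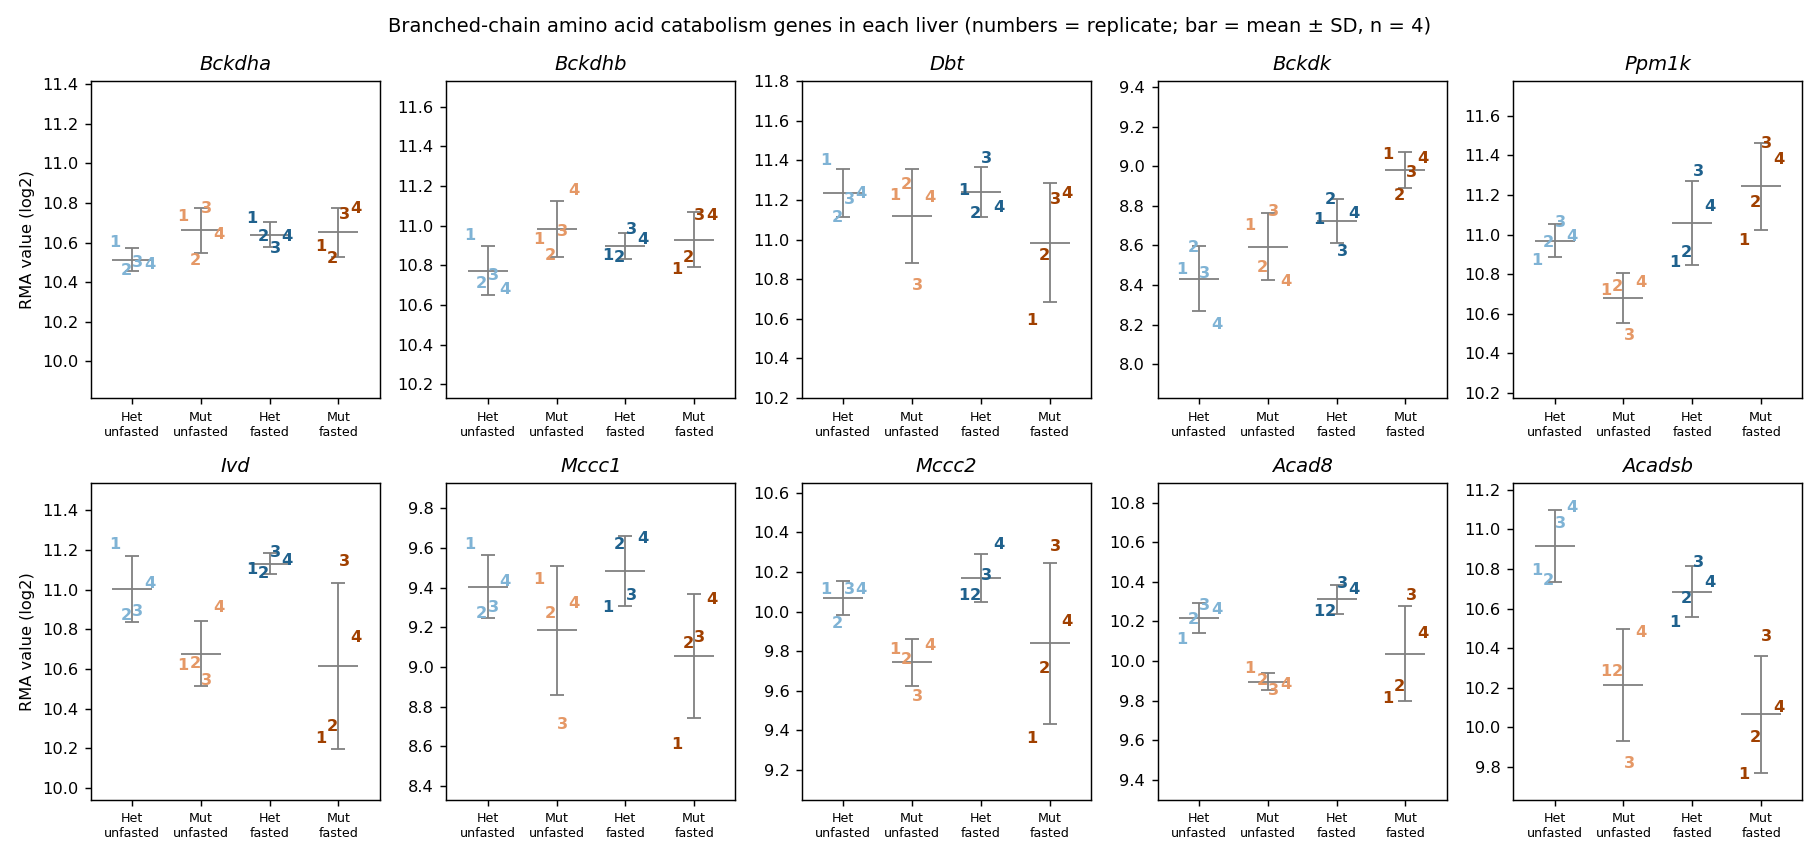
RMA values (log2, vertical axis, the same span in every panel) of the 10 genes in each liver by group; digits give the replicate number and bars the mean ± SD of 4 livers. Acadsb lies lower in all 8 mutant livers than in all 8 heterozygous ones, and Ppm1k is lowest in the unfasted mutants.

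The first question was whether the pathway differed between the genotypes. The isoleucine enzyme gene Acadsb was called lower in mutants in both feeding states. The valine enzyme gene Acad8 was called lower in the unfasted state and the leucine enzyme gene Ivd in the fasted state. Acad8 and Ivd had lower means in the other state too, without a call. The test of whether their genotype difference depended on feeding gave no call (limma, adjusted p = 0.905 and 0.731). The 3 core subunit genes of the dehydrogenase complex did not pass in either state. In unfasted livers 2 of 10 members fell and none rose, where 3.69% of all genes were called lower and 4.25% higher. In fasted livers 2 of 10 fell and none rose, against 5.01% of all genes lower and 8.62% higher. Since the members were chosen with earlier results of these data known, such shares here and below are a description and no test of the pathway. The median difference of the 10 members was -0.25 in unfasted and -0.26 in fasted livers, beside 0.01 and -0.02 over all genes. The unfasted and fasted genotype comparisons share no array, but both were tested with the same spread per gene from all 16 arrays. They are therefore not independent tests.

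**Figure D2:**
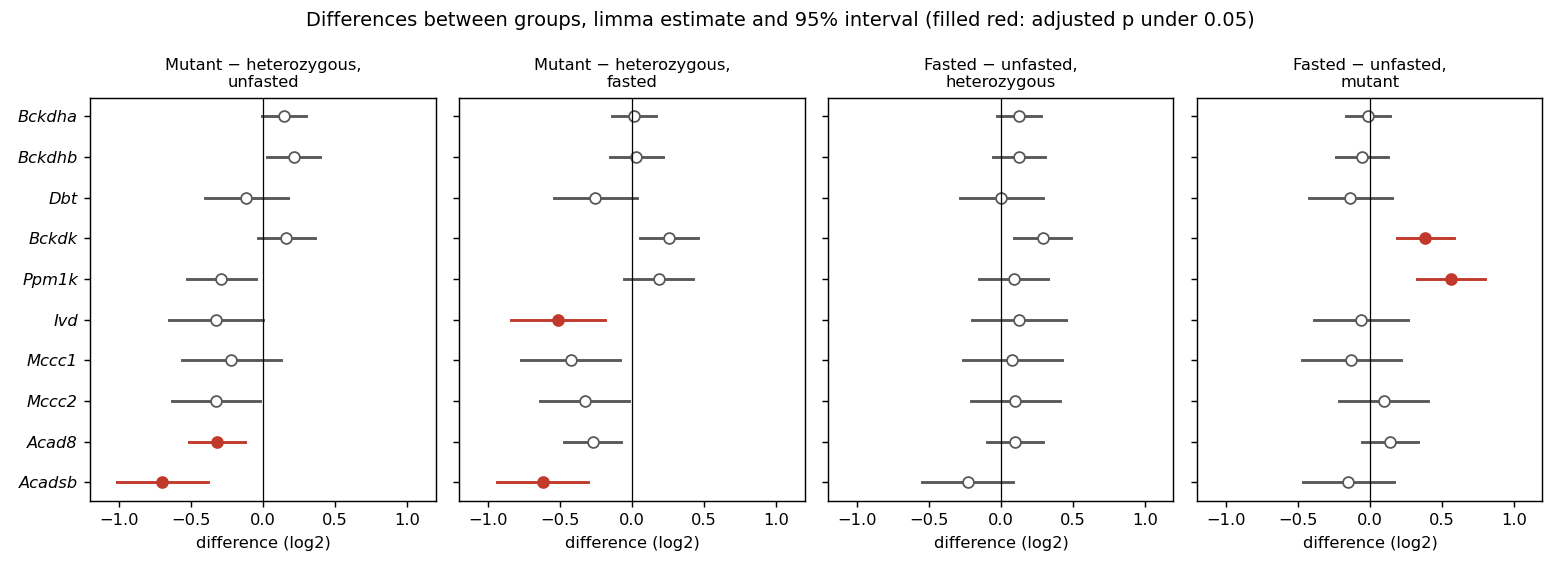
Differences between groups (log2, horizontal axis) for the 10 genes in the 4 pairwise comparisons, as limma estimates with 95% intervals; filled red points are called. In both genotype comparisons the called points lie below 0, and in the mutant fasting comparison Bckdk and Ppm1k lie above it.

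Acadsb had the largest genotype difference of the members in both states. It read 10.79, 10.74, 11.03 and 11.11 in unfasted heterozygotes against 10.28, 10.28, 9.82 and 10.48 in unfasted mutants. After the fast it read 10.53, 10.65, 10.83 and 10.73 in heterozygotes against 9.76, 9.95, 10.46 and 10.10 in mutants. The genotypes did not overlap in either state, as was the case for 5.83% of all genes as a lower value in unfasted and 11% in fasted livers. Acadsb fell by 0.70 ± 0.15 (SE) in the unfasted state, 1.63-fold (limma, adjusted p = 0.0102), and by 0.62 ± 0.15 in the fasted state, 1.54-fold (adjusted p = 0.013). Without the unfasted mutant array that held acinar transcripts the unfasted difference was -0.72 (adjusted p = 0.0171). Both calls held when any 1 of the 16 arrays was left out, with adjusted p up to 0.0399 and 0.0433. The unfasted heterozygous mean was the highest of the 4 groups, and the 2 neighbours in each genotype did not differ beyond the test, with fasting differences of -0.23 ± 0.15 in heterozygotes and -0.15 ± 0.15 in mutants.

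Acad8 had a narrow spread in unfasted livers. It read 10.11, 10.21, 10.28 and 10.26 in heterozygotes against 9.96, 9.90, 9.85 and 9.88 in mutants, with no overlap. Acad8 fell by 0.32 ± 0.09, 1.25-fold (limma, adjusted p = 0.0443). After the fast it read 10.25, 10.25, 10.39 and 10.36 in heterozygotes and 9.81, 9.87, 10.33 and 10.14 in mutants. Mutant replicates 1, 2 and 4 lay below all heterozygotes here while replicate 3 lay among them, and the difference of -0.27 ± 0.09 did not pass (adjusted p = 0.0593). The unfasted call was close to the threshold, also without the acinar array (-0.34, adjusted p = 0.0498). It was lost without mutant unfasted replicate 2, 3 or 4 (adjusted p of 0.0838, 0.0992 and 0.0723), without heterozygous unfasted replicate 2, 3 or 4 (0.075, 0.129 and 0.115) and without any of the 4 heterozygous fasted arrays (0.0515 to 0.059), with a difference between -0.35 and -0.30 throughout. A second quantile normalization ended it as well (adjusted p = 0.059). The fasted difference passed without mutant fasted replicate 3 (adjusted p = 0.00768).

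The leucine enzyme genes lay lower in mutants, with the widest scatter in fasted mutants. Ivd read 11.10, 11.08, 11.19 and 11.15 in fasted heterozygotes against 10.25, 10.31, 11.14 and 10.76 in fasted mutants. The heterozygotes were tight, mutant replicates 1, 2 and 4 lay below them and replicate 3 lay within their range. Ivd fell by 0.52 ± 0.15, 1.43-fold (limma, adjusted p = 0.0372). Leaving out mutant fasted replicate 1 or 2 gave differences of -0.40 and -0.41 and ended the call (adjusted p of 0.107 and 0.124), as did leaving out any of the 4 heterozygous fasted arrays (0.0647 to 0.0808). A fit of only the 8 fasted arrays ended it too (adjusted p = 0.0666), and in that fit Bckdk was called higher in mutants (0.26, adjusted p = 0.0429). In unfasted livers Ivd read 11.23, 10.87, 10.89 and 11.03 in heterozygotes and 10.62, 10.63, 10.54 and 10.91 in mutants. Only the highest mutant and the lowest heterozygotes overlapped, and the difference of -0.33 ± 0.15 did not pass (adjusted p = 0.228).

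Both carboxylase subunit genes had mean values below the heterozygotes in each state without a call. Mccc2 read 10.11, 9.94, 10.11 and 10.11 in unfasted heterozygotes against 9.81, 9.76, 9.57 and 9.83 in unfasted mutants, with no overlap and a difference of -0.33 ± 0.14 (limma, adjusted p = 0.2). In fasted livers it read 10.08, 10.08, 10.18 and 10.34 in heterozygotes and 9.36, 9.71, 10.33 and 9.95 in mutants, a difference of -0.33 ± 0.14 (adjusted p = 0.14). Mutant replicate 3 reached the heterozygous range there, and without it the difference passed (adjusted p = 0.0129). Mccc1, the biotin-carrying subunit, read 9.30, 9.62, 9.36 and 9.65 in fasted heterozygotes and 8.61, 9.12, 9.15 and 9.34 in fasted mutants, a difference of -0.43 ± 0.16 (adjusted p = 0.0922, and 0.0446 without unfasted mutant replicate 3). In unfasted livers Mccc1 ran from 9.27 to 9.62 in heterozygotes and from 8.71 to 9.44 in mutants, and the difference was -0.22 ± 0.16 (adjusted p = 0.489). Within arrays Mccc1 minus Mccc2 averaged -0.66 ± 0.13 (SD, n = 4) in heterozygotes without and -0.69 ± 0.16 with the fast, and -0.56 ± 0.21 in unfasted and -0.78 ± 0.27 in fasted mutants, with overlapping ranges in all 4 groups.

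The core of the dehydrogenase complex gave no call in any comparison. Bckdha ran from 10.46 to 10.77 and Bckdhb from 10.68 to 11.18 over the 16 arrays. For Bckdha the genotype difference was 0.15 ± 0.07 in unfasted livers (95% interval -0.01 to 0.30, limma, adjusted p = 0.247) and 0.01 ± 0.07 in fasted ones (-0.14 to 0.16). For Bckdhb it was 0.21 ± 0.09 (0.03 to 0.39, adjusted p = 0.151) and 0.03 ± 0.09 (-0.15 to 0.21). Dbt read 11.40, 11.11, 11.20 and 11.23 in unfasted heterozygotes, 11.22, 11.28, 10.77 and 11.21 in unfasted mutants, 11.25, 11.13, 11.41 and 11.16 in fasted heterozygotes and 10.59, 10.92, 11.20 and 11.23 in fasted mutants. One unfasted and 2 fasted mutant livers lay below all heterozygotes, and the differences were -0.12 ± 0.14 (interval -0.40 to 0.17) and -0.25 ± 0.14 (-0.54 to 0.03, adjusted p = 0.219). Bckdha minus Bckdhb within an array averaged between -0.32 and -0.26 in the 4 groups, with SDs from 0.05 to 0.16.

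A contrast over both feeding states, 8 mutant against 8 heterozygous arrays, was added after these values had been seen. In it 4 members were lower (8.68% of all genes) and 1 higher (12.3%). Acadsb was lower by 1.58-fold, at -0.66 ± 0.11 (limma, adjusted p = 0.000453), with no overlap between the 8 and 8 arrays, a pattern that 1.07% of all genes had. Ivd was at -0.42 ± 0.11 (adjusted p = 0.0117), Acad8 at -0.30 ± 0.07 (0.0042) and Mccc2 at -0.33 ± 0.10 (0.0323). Mccc1 was at -0.32 ± 0.12 and missed the threshold (0.0575). Bckdk, the kinase gene, was the 1 member that was higher, at 0.21 ± 0.07 (0.0347). The calls of Acadsb, Ivd and Acad8 held without any 1 array. That of Mccc2 was lost without unfasted mutant replicate 3, fasted mutant replicate 2, unfasted heterozygous replicate 1, 3 or 4 or fasted heterozygous replicate 3 or 4 (adjusted p up to 0.0684). That of Bckdk was lost without unfasted mutant replicate 1 or 3, fasted mutant replicate 1 or 4, unfasted heterozygous replicate 3 or 4 or fasted heterozygous replicate 1, 3 or 4 (up to 0.0732). Under a second quantile normalization Bckdk was not called (0.16, adjusted p = 0.0968) and Mccc1 was (-0.37, 0.0228).

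The 250 bases before the annotated start are shown for the 4 genes that were lower over both feeding states, to set their upstream sequence side by side. They come from RefSeq on the build GRCm38.p6, are written 5′ to 3′ in the direction of the gene, and have in capitals every match to the motifs named after them.
Acadsb (chr7:131410351-131410600, plus strand): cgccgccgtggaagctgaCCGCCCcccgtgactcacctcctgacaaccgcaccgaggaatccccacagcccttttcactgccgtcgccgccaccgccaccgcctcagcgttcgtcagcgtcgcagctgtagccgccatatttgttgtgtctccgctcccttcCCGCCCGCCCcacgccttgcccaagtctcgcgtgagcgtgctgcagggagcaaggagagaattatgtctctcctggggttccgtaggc
Acad8 (chr9:26999550-26999799, minus strand): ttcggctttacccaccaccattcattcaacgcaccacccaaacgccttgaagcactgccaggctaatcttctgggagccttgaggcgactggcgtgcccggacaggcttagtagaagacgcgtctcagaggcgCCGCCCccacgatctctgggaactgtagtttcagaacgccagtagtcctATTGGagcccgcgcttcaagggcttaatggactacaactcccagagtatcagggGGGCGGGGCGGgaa
Ivd (chr2:118861744-118861993, plus strand): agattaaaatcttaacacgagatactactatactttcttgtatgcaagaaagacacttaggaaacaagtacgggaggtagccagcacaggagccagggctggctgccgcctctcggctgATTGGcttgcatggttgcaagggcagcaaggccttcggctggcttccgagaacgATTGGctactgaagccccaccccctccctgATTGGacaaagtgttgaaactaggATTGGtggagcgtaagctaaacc
Mccc2 (chr13:100015640-100015889, minus strand): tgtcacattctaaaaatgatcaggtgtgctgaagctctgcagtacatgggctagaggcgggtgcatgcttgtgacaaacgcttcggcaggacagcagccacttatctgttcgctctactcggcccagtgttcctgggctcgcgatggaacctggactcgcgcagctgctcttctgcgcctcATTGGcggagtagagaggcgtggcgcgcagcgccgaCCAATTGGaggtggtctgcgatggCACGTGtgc

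The letters searched, on both strands, were CCAAT (the NF-Y box, in 33.8% of 32851 windows of the same length over all genes), GGGCGG (the GC box, 32.7%), CACGTG (the E-box, 6.02%), TATAAA (the TATA box, 12.4%), TGACGTCA (the cyclic AMP response element, 1.55%), TGATGCAA (an amino acid response element, 0.791%), TCAAGGTCA (the estrogen-related receptor element, 0.387%) and, by its name, an NRF1 site (0.782%). Matches of different motifs did not overlap in the windows shown. Matches of the same motif did in Mccc2, for the NF-Y box on opposite strands, and in Acad8 and Acadsb, for neighbouring GC boxes. Ivd had 4 matches to the NF-Y box and Mccc2 had 3, Acad8 had 1 beside 3 GC boxes, and Acadsb had 3 GC boxes and no NF-Y box. Mccc2 also held an E-box. Acadsb had the highest GC content of the 9 members with a window, 65.6% with 25 CpG dinucleotides, against a median of 52.4% and 6 over all windows. Ivd lay near that median with 51.2% and 8. No motif searched was found in all 4.

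The second question was how fasting moved the pathway in each genotype. In mutants the kinase gene Bckdk and the phosphatase gene Ppm1k, which act in opposite directions on the same complex, both rose. In heterozygotes no member passed the test. For mutants this made 2 of 10 members higher and none lower, where 2.33% of all genes were called higher and 1.02% lower. For heterozygotes it was 0 of 10, where 0.732% of all genes were called higher and 0.838% lower, and 1 member, Bckdk, had an unadjusted p under 0.05 (limma, 12.3% of all genes). The median difference of the members was -0.03 in mutants and 0.10 in heterozygotes, beside -0.01 and 0.01 over all genes. The upstream windows of these 2 regulatory genes are shown in the same form, since they were the members that rose.
Bckdk (chr7:127903823-127904072, plus strand): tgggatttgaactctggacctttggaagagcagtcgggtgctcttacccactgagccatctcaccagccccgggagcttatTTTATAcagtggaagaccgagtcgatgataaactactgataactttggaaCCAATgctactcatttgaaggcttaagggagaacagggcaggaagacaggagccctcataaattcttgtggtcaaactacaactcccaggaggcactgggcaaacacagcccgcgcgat
Ppm1k (chr6:57535488-57535737, minus strand): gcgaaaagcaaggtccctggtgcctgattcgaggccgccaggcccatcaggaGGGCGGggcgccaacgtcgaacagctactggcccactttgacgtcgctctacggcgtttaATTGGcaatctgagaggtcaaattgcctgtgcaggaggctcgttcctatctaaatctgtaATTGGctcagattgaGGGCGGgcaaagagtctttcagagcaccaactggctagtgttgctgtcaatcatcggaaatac

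Of the motifs, Bckdk had 1 NF-Y box and 1 TATA box match, and Ppm1k had 2 NF-Y and 2 GC boxes. Ppm1k read 10.72, 10.74, 10.49 and 10.76 in unfasted and 10.97, 11.16, 11.46 and 11.38 in fasted mutants. Every fasted mutant lay above every unfasted one, as for 5.49% of all genes, and Ppm1k rose by 0.56 ± 0.11, 1.48-fold (limma, adjusted p = 0.0158). In heterozygotes it read 10.87, 10.96, 11.06 and 10.99 unfasted and 10.86, 10.91, 11.32 and 11.14 fasted, with overlap and a difference of 0.09 ± 0.11 (adjusted p = 0.862). Unfasted mutants had the lowest values of the 4 groups, below all 4 unfasted heterozygotes (difference -0.29 ± 0.11, adjusted p = 0.132). Fasted mutants had the highest mean, 0.18 ± 0.11 above fasted heterozygotes with overlap (adjusted p = 0.281). The test of whether the fasting difference depended on genotype gave 0.47 ± 0.16 for Ppm1k (adjusted p = 0.379, unadjusted p = 0.0088), so the difference between the genotypes in their response was not called. Without unfasted mutant replicate 1, the array with acinar transcripts, the rise was 0.58 (adjusted p = 0.0159). It passed with any 1 array left out (adjusted p up to 0.045), and was not called in a fit of the 8 mutant arrays alone (0.0895).

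Bckdk read 8.70, 8.49, 8.77 and 8.42 in unfasted and 9.06, 8.85, 8.97 and 9.04 in fasted mutants, with no overlap. It rose by 0.39 ± 0.09, 1.31-fold (limma, adjusted p = 0.0361). In heterozygotes it read 8.48, 8.59, 8.46 and 8.20 unfasted and 8.73, 8.83, 8.57 and 8.76 fasted, where 1 fasted liver fell among the unfasted ones, and the difference of 0.29 ± 0.09 did not pass (adjusted p = 0.162). The interaction was 0.10 ± 0.13 (interval -0.19 to 0.38, adjusted p = 0.777). All 4 fasted mutants lay above all 4 fasted heterozygotes, as for 12.8% of all genes, and that difference was 0.26 ± 0.09 (adjusted p = 0.0798). In unfasted livers the genotypes overlapped, at 0.16 ± 0.09 (adjusted p = 0.349). Without the acinar array the rise of Bckdk in mutants was 0.42 (adjusted p = 0.0229). The call ended without unfasted mutant replicate 2 or 4 (adjusted p of 0.0942 and 0.0962) and without any of the 4 fasted mutant arrays (0.0567 to 0.0815). It also ended in a fit of the 8 mutant arrays alone (0.126) and under a second quantile normalization (0.0766). Over both genotypes, a contrast added after the values had been seen, Bckdk was higher in fasted livers by 0.34 ± 0.07 (adjusted p = 0.00719) and Ppm1k by 0.33 ± 0.08 (0.0223), 2 of 10 members against 4.2% of all genes, and both held without any 1 array.

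**Figure D3:**
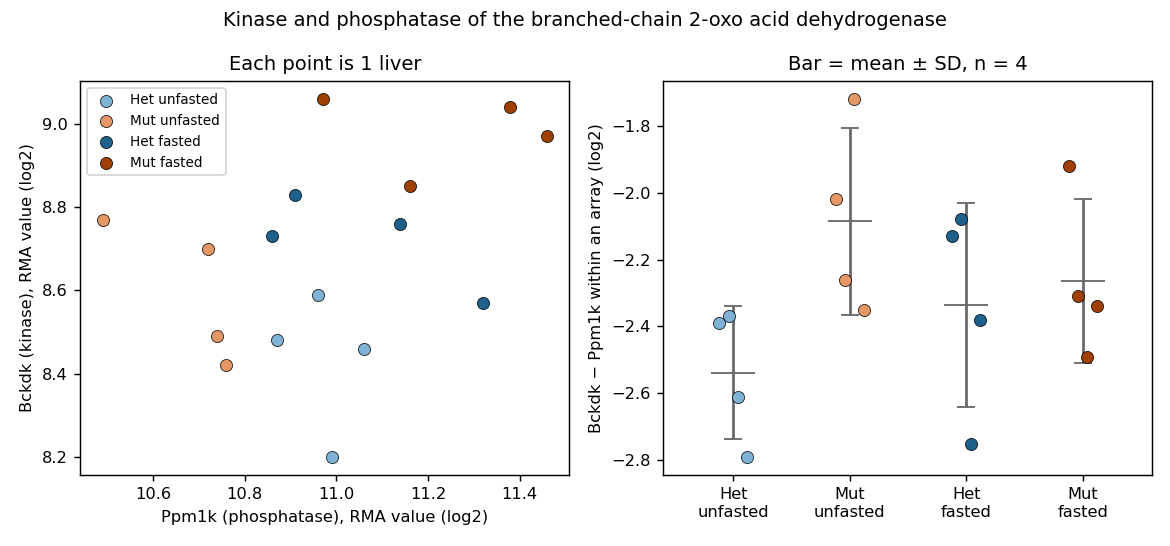
Left, Bckdk against Ppm1k (RMA values, log2) with 1 point per liver; right, Bckdk minus Ppm1k within each array by group, with the mean ± SD of 4 livers as bars. Fasted mutants lie highest for Bckdk, and the within-array difference is highest on average in unfasted mutants, at -2.09 ± 0.28, and lowest in unfasted heterozygotes, at -2.54 ± 0.20.

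Set within each array, the kinase minus the phosphatase gene gave -2.39, -2.37, -2.61 and -2.79 in unfasted heterozygotes and -2.02, -2.26, -1.72 and -2.35 in unfasted mutants. These 2 groups did not overlap, though their nearest values were close, at -2.37 and -2.35. How often other pairs of genes separate the groups was not counted. After the fast the values were -2.13, -2.08, -2.75 and -2.38 in heterozygotes and -1.92, -2.31, -2.49 and -2.34 in mutants, which overlapped. The group means were -2.54 ± 0.20 (SD, n = 4), -2.09 ± 0.28, -2.34 ± 0.30 and -2.26 ± 0.24 in that order. These are given as a description with no test, and since probe sets of different genes differ in brightness only the differences between groups can be read. No member was called in the interaction of genotype and fasting by limma, where 2 of 19938 genes (0.01%) were. Ppm1k was the 1 member with an unadjusted p under 0.05, which 11% of all genes had.

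Liver-to-liver scatter was wide in fasted mutants. The median SD of the 10 members was 0.27 there, against 0.09 over all genes in the same group. It was 0.15 against 0.11 in unfasted mutants, 0.12 against 0.07 in unfasted heterozygotes and 0.12 against 0.07 in fasted heterozygotes. The members were brighter than 68.2% to 95.2% of all genes, and no comparison with genes of like brightness was made. Fasted mutant replicates 1 and 2 each lay below their group mean for 9 of 10 members, replicate 3 lay above it for 9 and replicate 4 for 10. Such counts were not taken over all genes, and whether an array was shifted as a whole was not tested. The lowest deviation was that of Mccc2 at -0.47 in replicate 1 and the highest that of Ivd at 0.52 in replicate 3, where Mccc2 was at 0.49. Bckdk ran otherwise, at 0.08 above in replicate 1 and 0.01 below in replicate 3, and Mccc1 lay 0.06 above in replicate 2. The labels give a range of fasting times for this group. Hepatocyte markers averaged 13.16, 13.10, 13.06 and 13.06 in replicates 1 to 4, periportal genes 12.05, 12.25, 12.56 and 12.13, endothelial markers 10.08, 10.02, 9.84 and 9.94, and adipose markers 6.89, 6.43, 6.46 and 6.47, and their part in this split was not tested. Unfasted mutant replicate 3 lay below its group mean for 8 of 10 members, by 0.48 for Mccc1. Its hepatocyte markers averaged 12.75 against 13.05 to 13.17 in the other 3.

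**Figure D4:**
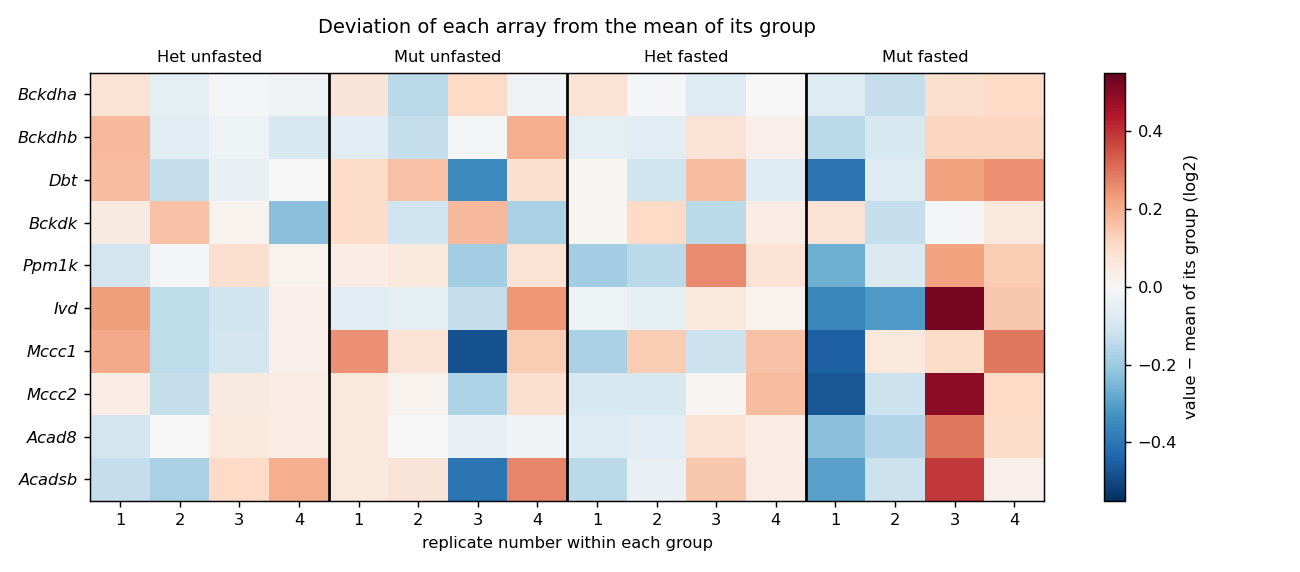
Value minus the mean of its own group (log2, colour) for each of the 10 genes (rows) on each of the 16 arrays (columns, in blocks of 4 by group). Fasted mutant replicates 1 and 2 are mostly below 0 and replicates 3 and 4 mostly above it, from -0.47 to 0.52, while the heterozygous blocks are paler.

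The remaining enzymes of the route were taken from a list of 17 other steps, of which 16 were measured. In unfasted mutants 1 was lower and 1 higher, and in fasted mutants 2 were lower and 1 higher, with list medians of -0.07 and -0.06. In the contrast of 8 against 8 arrays 4 of the 16 were lower and 1 higher, against 8.68% and 12.3% of all genes. Hsd17b10, which oxidises the isoleucine intermediate after Acadsb, read 11.97 to 12.36 in unfasted heterozygotes and 11.62 to 11.92 in mutants, and 12.55 to 12.76 and 11.96 to 12.49 after the fast, with no overlap in either state. It fell by 0.46 ± 0.11 (limma, adjusted p = 0.0205) and by 0.51 ± 0.11 (0.00781). In unfasted livers the call of Hsd17b10 ended when mutant replicate 2 or heterozygous replicate 3 or 4 was dropped, with adjusted p reaching 0.0747. Abat, the transaminase of GABA that also handles an intermediate of valine breakdown, read 11.80 to 12.08 in fasted heterozygotes and 9.60, 10.11, 11.61 and 10.70 in fasted mutants, where replicates 1 and 2 were again the lowest. It fell by 1.46 ± 0.35 (adjusted p = 0.012), and its unfasted difference was -1.15 ± 0.35 (0.0541). Hadha, a subunit of the trifunctional protein of fatty acid oxidation, was higher by 0.18 ± 0.05 (0.0372) and 0.16 ± 0.05 (0.0461). For Hadha, leaving out any of 8 arrays ended the unfasted call, with adjusted p reaching 0.123, and any of 12 ended the fasted one, reaching 0.104. The unfasted call also ended with each array centred on its median and in a fit of 8 arrays (up to 0.149), and the fasted one with that centring, robust moderation and a replicate block (0.0565 with the block).

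With fasting, 1 gene of these steps rose and 1 fell in heterozygotes, and 1 rose in mutants. Slc25a44, the mitochondrial carrier of branched-chain amino acids, fell by 0.37 ± 0.07 in heterozygotes (limma, adjusted p = 0.0133). Hadha rose by 0.26 ± 0.05 in heterozygotes (0.0154) and by 0.24 ± 0.05 in mutants (0.0198), and each of these calls ended when either of 2 arrays was dropped, with adjusted p reaching 0.0564 and 0.0601. The call in mutants also ended in a fit of the 8 mutant arrays alone (0.103). The first transaminases, which are named here for their place in the route and not by the naming rule, did not pass: the mitochondrial Bcat2 ran from 8.15 to 8.74 and the cytosolic Bcat1 from 6.40 to 6.61 over all 16 arrays. Of 4 propionate genes that follow valine and isoleucine, Pcca, a subunit of propionyl-CoA carboxylase, fell by 0.40 ± 0.11 in unfasted mutants (0.0396) beside Mmut. For Pcca the call ended when any of 5 arrays was dropped, with adjusted p reaching 0.128. The Pcca difference in fasted livers was -0.31 ± 0.11 (0.0737).

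The 3 acyl-CoA dehydrogenases of this pathway were set beside 9 other members of their enzyme family. Of these 9, 3 rose in unfasted and 1 in fasted mutants and none fell, with median differences of 0.17 and 0.06. Acadl, the long-chain enzyme, read 11.12 to 11.48 in unfasted heterozygotes and 11.63 to 11.93 in mutants, and 11.53 to 11.68 and 11.88 to 11.99 after the fast, with no overlap. It rose by 0.44 ± 0.08 (limma, adjusted p = 0.00374) and by 0.34 ± 0.08 (0.0103). Acad10 rose by 0.43 ± 0.08 (0.00506) and Acad12 by 0.46 ± 0.10 (0.00982) in unfasted mutants. In the contrast of 8 against 8 arrays 3 of the 9 were higher and 1 lower, and the lower one was Gcdh, the glutaryl-CoA dehydrogenase of lysine and tryptophan breakdown, at -0.28 ± 0.08 (adjusted p = 0.0195). Of the 3 branched-chain ones, 2 fell in each state and none rose. Whether the 2 sets differ was not tested, since a list-level test was not made. With fasting Acadm, the medium-chain enzyme, rose in heterozygotes by 0.40 ± 0.07 (0.0121), where Ivd, Acad8 and Acadsb differed by 0.13 ± 0.15, 0.10 ± 0.09 and -0.23 ± 0.15 without a call. Of 3 electron acceptor genes that serve these enzymes, 1 rose with fasting in heterozygotes and 2 in mutants. Etfdh rose by 0.32 ± 0.06 in heterozygotes (0.00948) and by 0.42 ± 0.06 in mutants (0.00273), and Etfb rose by 0.28 ± 0.06 in mutants (0.0261). For Etfb the call ended when any of 6 arrays was dropped, with adjusted p reaching 0.0701, and in a fit of the 8 mutant arrays alone (0.149).

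**Figure D5:**
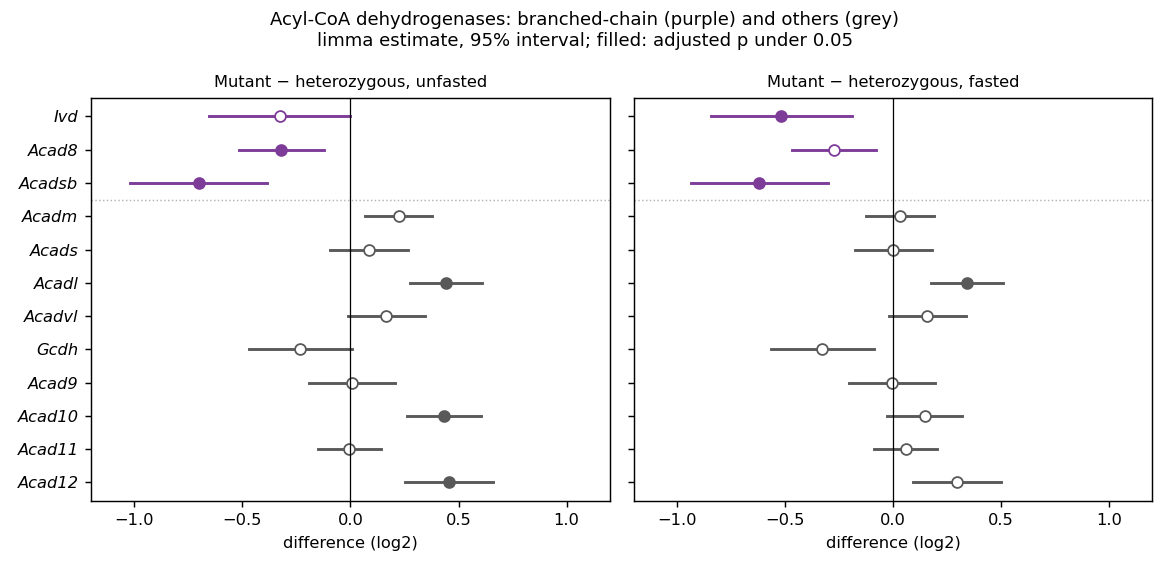
Genotype differences (log2, horizontal axis) of the 3 branched-chain acyl-CoA dehydrogenases (purple) and 9 others of the family (grey) in unfasted and fasted livers, as limma estimates with 95% intervals; filled points are called. The called purple points lie below 0, between -0.70 and -0.32, and the called grey ones above it, between 0.34 and 0.46.

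The complexes most like the branched-chain dehydrogenase are pyruvate dehydrogenase and 2-oxoglutarate dehydrogenase. Of 12 genes of these and their regulators, 2 rose in unfasted and 4 in fasted mutants and none fell. Pdk4, a kinase that inhibits pyruvate dehydrogenase, read 8.56 to 10.22 in unfasted heterozygotes and 10.54 to 12.03 in mutants, and 10.08 to 10.53 and 11.23 to 12.57 after the fast, with no overlap. It rose by 2.17 ± 0.39 (limma, adjusted p = 0.00358) and by 1.65 ± 0.39 (0.0111). Pdp1, an opposing phosphatase, rose by 0.55 ± 0.08 (0.000754) and by 0.45 ± 0.08 (0.00201). Pdp2, the other phosphatase gene listed, had lower means in mutants in both states without a call. After the fast Pdp2 read 8.80 to 9.04 in heterozygotes and 8.50 to 8.79 in mutants. In the contrast of 8 against 8 arrays 4 of the 12 genes were higher and 1 lower. In the branched-chain complex Bckdk and Ppm1k had no call in either genotype comparison, with Bckdk at 0.16 ± 0.09 and 0.26 ± 0.09 and Ppm1k at -0.29 ± 0.11 and 0.18 ± 0.11. In fasted mutants Dlat, the E2 core of pyruvate dehydrogenase, rose by 0.24 ± 0.07 (0.0443) and the kinase gene Pdk3 by 0.22 ± 0.07 (0.0394), while Dbt, the E2 core here, was at -0.25 ± 0.14. Dropping any of 10 arrays ended the call of Dlat, with adjusted p reaching 0.144, and any of 5 that of Pdk3, reaching 0.105. The Dlat call also ended with a replicate block (0.0545), in a fit of the 8 fasted arrays and under both other scalings (up to 0.145), and the Pdk3 call in that fit and without the variance trend.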

How the data were processed

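The authors deposited 1 table of log2 values for 35556 probe sets on 16 arrays, made with Affymetrix Expression Console and RMA (background correction, quantile normalization and a summary per probe set) per the submitters' processing notes. The sources used here do not state versions, library file or genome build. The labels give 300 ng of total RNA per array. RMA values hold no detection calls, and changes of dim genes can be understated. Probe sets with 1 symbol in GEO's platform annotation (21789) were updated by gene number through RefSeq (21698 matched), and the brightest probe set of a gene was kept, which left 19938 genes. Group means were estimated with limma 3.58.1 in R 4.3.3, with moderated variance (trend), two-sided tests and Benjamini-Hochberg adjustment over all genes. Fold changes are computed from log2 differences. The fit was also run on simulated data with the same spread per gene in every group. Such data could not check calls where the scatter differs between groups. Alternatives were a replicate block, only the 8 arrays compared, array weights, 2 other scalings, other variance moderation, probe set means, brighter genes, a threshold of 0.01 and leaving out each array. Other genes came from lists of pathway steps and were named only where called, up to 4 per list and contrast. Genes most like a member were taken by the smallest root mean square difference of centred array values. Members and lists were chosen with earlier results of these data known. The contrasts over 8 against 8 arrays were added after seeing the data. No batch is given in the labels. The p-values rest on 1 spread per gene, estimated between mice within the 4 groups over all 16 arrays and shared by every comparison. Standard errors thus do not follow the scatter of the 2 groups compared, which for the members was widest in fasted mutants. Precision is limited by the number of arrays.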

Additional observations from a re-analysis of the deposited data

Results flagged for a closer look

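Of 44 sets of 4 values tested for a single array far from the others (the 10 members and Mmut in 4 groups), 4 were flagged, and chance flags about 5% of such sets. Dbt read 10.77 in unfasted mutant replicate 3, against 11.21 to 11.28 in the other 3 arrays of its group. Ppm1k read 10.49 on the same array, against 10.72 to 10.76. The hepatocyte markers averaged 12.75 on that array and 13.05 to 13.17 on the other 3. Mccc2 read 9.94 in unfasted heterozygous replicate 2, against 10.11 in the other 3. Mmut read 9.66 on that same array, against 9.86 to 9.89.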

How the results depend on the processing

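The differences of the 10 members in 7 contrasts gave 1790 values under the alternatives. Of these, 1719 kept their side of the threshold, 54 lost a call and 17 gained one. Only 13 of the 70 differences were called in the main fit, and only these could lose a call. The share of all values that kept their side therefore does not measure how stable the calls were. Each member had 1 probe set, so taking probe set means left its difference unchanged. No called difference changed sign, and 15 differences without a call did so under some alternative. At an adjusted p under 0.01 the members called were 0, 0 and 0 in the unfasted genotype, fasted genotype and mutant fasting comparisons, and 2 and 1 in the genotype and fasting contrasts over all arrays. A second quantile normalization gave 1 in the unfasted genotype, 4 in the fasted genotype and 1 in the mutant fasting comparison. A fit of the 8 mutant arrays alone gave 0 for fasting in mutants, where 33 genes were called in place of 667. Array weights gave 1 member for fasting in heterozygotes. Leaving out 1 array gave 1 to 2 members in the unfasted genotype, 1 to 4 in the fasted genotype, 0 to 0 in the heterozygous fasting and 1 to 2 in the mutant fasting comparison, and 3 to 5 and 2 to 2 over all arrays. The cause was not tested.

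Over all genes, the fit of only the arrays compared gave 764 calls in place of 1584 in the unfasted genotype comparison and 568 in place of 313 for fasting in heterozygotes, where array weights gave 1029. Array weights gave 2007 in place of 1303 for fasting over all arrays. The threshold of 0.01 gave 461, 993 (in place of 2716), 73, 79, 2223 (in place of 4176) and 428. The interaction had 0 to 6 calls. Without 1 array the counts ran from 698 to 1781, 1575 to 3180, 155 to 358 and 224 to 1941 in the 4 pairwise comparisons. The highest for fasting in mutants, 1941, came when the array with acinar transcripts (mutant, not fasted, replicate 1) was dropped.

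Deviations of same-numbered arrays had correlations from -0.12 to 0.252, with 9 of 24 over 0.1. Between 2 groups, 1 to 3 of 4 arrays correlated best with the array of their own number. These values do not settle whether the numbers pair mice, and the main fit did not use them as pairs. A replicate block left 2 members called in the unfasted genotype comparison and 3 in the fasted one, where Acad8 passed (adjusted p = 0.0461). It changed no other call of a member. Of the other calls printed, it ended those of Hadha (0.0565) and Dlat (0.0545) in fasted livers.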

Other observations

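Genes of the cofactors and of related biotin enzymes were also measured. Of 7 measured cofactor genes, Hlcs, the ligase that attaches biotin to carboxylases such as the product of Mccc1, was the 1 called between genotypes. It read 7.98 to 8.51 in fasted heterozygotes and 8.56 to 8.99 in fasted mutants and rose by 0.57 ± 0.15 (limma, adjusted p = 0.02), while its unfasted values of 7.78 to 8.19 and 8.13 to 8.77 overlapped. Dropping any of 4 arrays ended this call, with adjusted p reaching 0.0637. Among the other biotin carboxylase genes, Acaca, the first enzyme of fatty acid synthesis, fell with fasting by 0.92 ± 0.11 in heterozygotes (0.000675) and by 0.97 ± 0.11 in mutants (0.000639). Mccc1 and Mccc2 differed by -0.13 to 0.10 in the same comparisons without a call. By genotype, Acacb was higher in fasted mutants by 0.62 (limma, adjusted p = 0.0325). Acacb read 10.28 to 10.61 there and 9.55 to 9.97 in fasted heterozygotes. Dropping any of 5 arrays ended this call, with adjusted p reaching 0.0979. In the contrast of 8 against 8 arrays 2 of the 4 measured genes of this list, Pcca and Pccb among them, were higher and 1 lower.

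Of 8 regulators, Mlxipl, a carbohydrate-sensing transcription factor that has been linked to Bckdk and Ppm1k, fell with fasting by 0.71 ± 0.12 in heterozygotes (limma, adjusted p = 0.00744) and by 0.70 ± 0.12 in mutants (0.0092). It was lower in mutants by genotype too, at -0.42 ± 0.12 unfasted (0.0381) and -0.41 ± 0.12 fasted (0.0306). Dropping any of 7 and any of 5 arrays ended these last 2 calls, with adjusted p reaching 0.0923 and 0.084. The unfasted one also ended with array weights, a second quantile normalization and a fit of only the 8 arrays compared (up to 0.11), and the fasting call in mutants ended in a fit of their 8 arrays (0.0646). Srebf1, a driver of fat synthesis, was lower in unfasted mutants by genotype, at -1.10 ± 0.17 (0.0013), a call that every alternative kept. It fell with fasting by 1.70 ± 0.17 in heterozygotes (7.96e-05) and by 0.70 ± 0.17 in mutants (0.0324), the latter call ending when any of 5 arrays was dropped (reaching 0.0939) and in a fit of the 8 mutant arrays alone (0.161). Other regulators were higher. In fasted mutants Pparg, a factor of fat storage, rose by 0.95 ± 0.15 (0.00119), and Ppargc1a, a coactivator of mitochondrial genes, by 0.98 ± 0.26 (0.0227), a call that ended when any of 4 arrays was dropped (reaching 0.0731). With fasting in mutants Ppargc1a rose by 1.33 ± 0.26 (0.0154), but was not called in a fit of their 8 arrays (0.112).

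The genes whose centred profile over the 16 arrays lay closest to a member were Mug2 and Mup5 for Acadsb (root mean square differences of 0.12 and 0.12, beside 0.40 for the spread of Acadsb itself), Hpd and F7 for Ivd (0.10 and 0.12, beside 0.30), and Rabl3 and Arsg for Ppm1k (0.12 and 0.13, beside 0.25). Hpd, which acts in tyrosine breakdown, averaged 12.80 in fasted heterozygotes and 12.31 in fasted mutants. These arrays share groups and are no independent test of likeness.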
